A study of Mus musculus with 8 samples.

Results

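Genes of megakaryocytes and platelets were followed on 8 expression arrays from a study of the zinc finger factor Zfx in mouse hematopoietic and embryonic stem cells. The 9 genes are Itga2b, Itgb3, Gp9, Gp1bb, Treml1, Pf4, Vwf, Zfpm1 and Nfe2. They were taken by symbol in the platform annotation, which gives them 12 probe sets out of 45037 probe sets that are not array controls, or 9 of 18193 genes with a probe set of their own. The choice used no signal value, but it was made with earlier results of these arrays known.

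The HSC samples are Lin- Sca-1+ c-Kit+ bone marrow cells, a sorted fraction that holds hematopoietic stem cells and multipotent progenitors. HSC Zfx-cko cells came from male mice with a floxed Zfx allele on their only X chromosome and an Mx1-Cre transgene (2 arrays). HSC Zfx-flox cells came from littermates with the same floxed allele and no Cre (2 arrays). Cells of 4 to 6 mice were pooled for each group and taken 4 days after the last injection of pI·C, the double-stranded RNA that induces the interferon-responsive Mx1 promoter, so both HSC groups carry the floxed allele and the pI·C treatment, and Cre is in the Zfx-cko group alone. Mx1-Cre is not limited to blood cells, and pI·C itself sets off an interferon response. The ESC samples are Zfx-null embryonic stem cell clones (2 arrays) and Zfx-flox control clones (2 arrays), grown on gelatin in medium with serum replacement and the cytokine LIF. The series' design text speaks of hybridization in duplicate and names no separate cultures or pools, so the p-values cover only how far arrays of a group lie apart, which may be technical error. HSC RNA went through 2 rounds of amplification and ESC RNA through 1, so that level differences between the cell types cannot be told apart from the amplification.

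Megakaryocytes are the marrow cells that shed platelets. They share a progenitor with the erythroid lineage, and both lineages depend on the factor Gata1 and its cofactor Zfpm1 (also called FOG1). Some of their genes, including Vwf, Itga2b and Pf4, are also transcribed in part of the stem cell compartment itself. On the platelet surface the products of Itga2b and Itgb3 form the fibrinogen receptor, while those of Gp9 and Gp1bb belong to the receptor for von Willebrand factor, which Vwf encodes.

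The values are array signals on a linear scale that were scaled to the same trimmed mean on each array. Replicate arrays correlated at r of 0.980 to 0.987 on the log2 scale. The array controls read far weaker at the 5′ end than at the 3′ end of Gapdh in HSC, by a log2 ratio of -4.68 and -4.39 in Zfx-cko and of -4.18 and -4.25 in Zfx-flox. In ESC the Gapdh ratio lay between 0.38 and 0.44. The ratio for Actb lay between -3.60 and -3.30 in HSC and between -0.46 and -0.29 in ESC. Of 7 probe sets for Zfx, 3 of them shared with Zfa-ps, a single one was near 0 in Zfx-null ESC, with signals of 1.32 and 0.878 against 285 and 298 in Zfx-flox ESC. That shared probe set read 1.34 and 0.305 in Zfx-cko HSC and 7.22 and 0.971 in Zfx-flox HSC, and of the other Zfx probe sets tested in HSC 0 were lower and 1 was higher (log2 change 0.72, adjusted p = 0.000736), so the signals do not check the HSC labels. The cell types carried their markers: Pou5f1 and Nanog averaged 8.33 and 1.75 in Zfx-cko HSC and 8.74 and 1.59 in Zfx-flox HSC, and averaged 1686 and 1604 in Zfx-null ESC and 3343 and 2627 in Zfx-flox ESC, while Cd34 averaged 3338 in Zfx-cko HSC and 1075 in Zfx-flox HSC and lay between 29.3 and 42.5 in ESC.

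Changes are differences of log2(signal + 14.2), with the standard error of the limma fit across all arrays and its Benjamini-Hochberg adjusted p over all probe sets tested; a probe set passes the test at an adjusted p under 0.05. The added 14.2 is the lower quartile of all signals, and it understates changes of weak genes. In HSC, 10 of the 12 member probe sets were strong enough to be tested, 7 were higher in Zfx-cko than in Zfx-flox, 1 was lower and 2 did not pass. Of all 27022 probe sets tested in HSC, 37.7% passed, 21.7% as higher and 16% as lower, so a call is common on these arrays. These were 5860 higher and 4334 lower, a split that became 4446 higher and 4939 lower when arrays were centred on their medians. The members' median log2 change was 1.05, beside 0.06 over all probe sets tested. The probe sets of Itgb3 and Gp9 were tested only because they were strong in Zfx-cko. With 1 probe set per gene and without these 2 genes, 7 members were tested, and 4 were higher and 1 lower. Their median log2 change was 0.65. Of all genes tested in HSC, 22.5% passed as higher and 19.6% as lower. These are bulk samples, in which fewer cells of a type and less RNA per cell cannot be told apart.

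**Figure D1:**
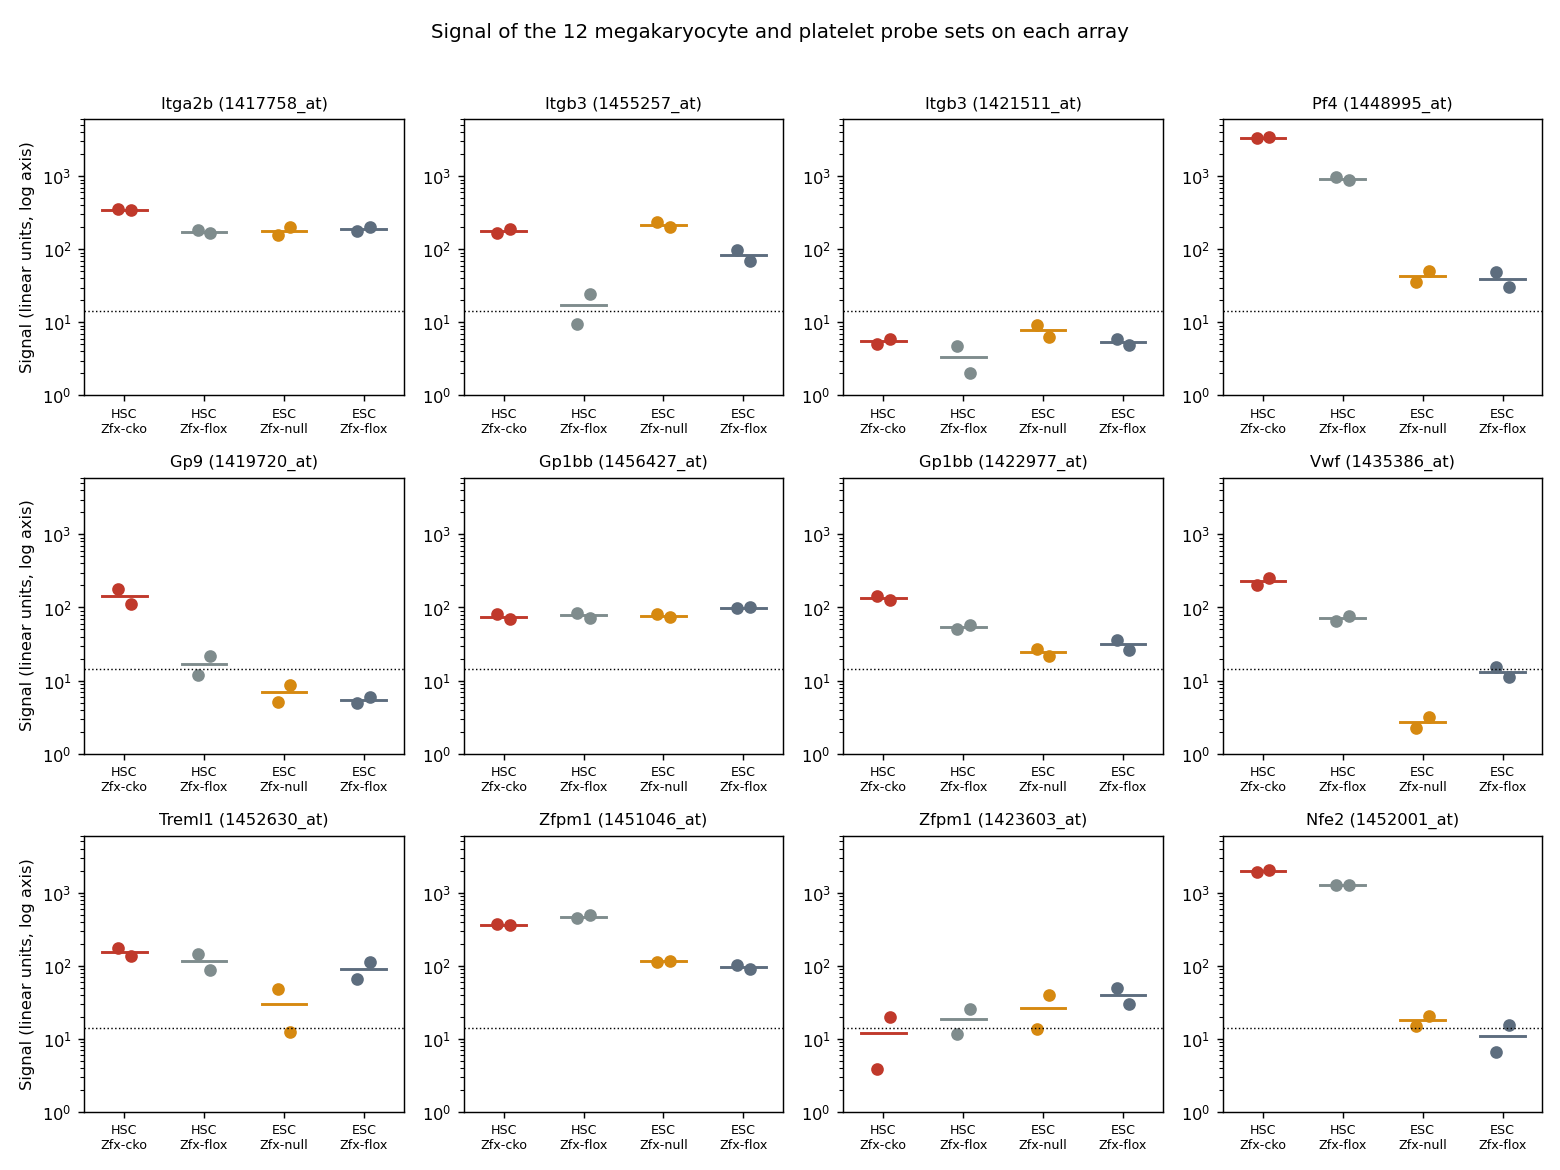
Signal of each of the 12 member probe sets (log axis, scaled array units) on the arrays of HSC Zfx-cko, HSC Zfx-flox, Zfx-null ESC and Zfx-flox ESC. Dots are arrays, bars are group means and the dotted line is the added constant of 14.2. Pf4 and Vwf means are 3.64-fold and 3.18-fold apart in HSC, and the Zfx-flox HSC arrays of Gp9 and Itgb3 lie about the dotted line.

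Itga2b encodes the alpha subunit of the fibrinogen receptor, the surface marker CD41, and is used to mark both megakaryocytes and early blood progenitors. Its probe set (1417758_at) had signals of 356 and 344 in Zfx-cko HSC, against 182 and 168 in Zfx-flox HSC. The Zfx-cko arrays lay above both controls, at a ratio of means of 2.00 (log2 change 0.95 ± 0.14, SE, adjusted p = 0.000685). In ESC the signals were 155 and 200 in Zfx-null and 177 and 201 in Zfx-flox cells, which overlap. Group means were 350 ± 8.27 in Zfx-cko HSC, 175 ± 9.65 in Zfx-flox HSC, 177 ± 31.7 in Zfx-null ESC and 189 ± 17.2 in Zfx-flox ESC (SD, n = 2 each), with no test between the cell types.

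The promoter of Itga2b is shown because it is a standard model of megakaryocyte gene control. Itga2b and Pf4 together also illustrate how differently the short motifs are spread over members that were both higher. The sequences shown are the 250 bases before the RefSeq start of Itga2b and of Pf4, read 5′ to 3′ on the gene's strand, in build GRCm38.p6. Itga2b lies on the minus strand at chr11:102469884-102470133, and Pf4 on the plus strand at chr5:90772185-90772434. Capitals mark the ETS core GGAAG on either strand, the letters bound by factors such as Fli1.
Itga2b: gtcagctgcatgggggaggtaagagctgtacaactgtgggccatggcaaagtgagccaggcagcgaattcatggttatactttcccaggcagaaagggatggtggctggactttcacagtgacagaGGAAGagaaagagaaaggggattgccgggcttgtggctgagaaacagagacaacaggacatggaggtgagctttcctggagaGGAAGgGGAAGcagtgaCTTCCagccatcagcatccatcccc
Pf4: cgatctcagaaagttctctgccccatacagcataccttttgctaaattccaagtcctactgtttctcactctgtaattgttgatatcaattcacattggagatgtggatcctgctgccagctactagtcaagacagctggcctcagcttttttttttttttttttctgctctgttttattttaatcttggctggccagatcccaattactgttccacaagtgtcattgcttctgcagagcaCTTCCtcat
The Itga2b window holds 4 ETS cores and the Pf4 window 1. Promoters were on hand for 6 of the 9 genes (Itga2b, Pf4, Gp9, Gp1bb, Treml1 and Zfpm1). The windows of Gp9 (chr6:87777820-87778069) and Zfpm1 (chr8:122281891-122282140) lie inside the records of these genes, which start at 87776131 and 122281856. Those windows are therefore not upstream of the whole gene. Of the 6 windows, 6 hold GGAAG on either strand, as do 64.07% of 32851 promoter windows of the same length. The GATA core GATAA, on either strand, is in 1 of the 6, that of Gp9, against 22.58% of all windows. The NF-E2 type core TGAGTCA, on either strand, is in 0 of the 6, against 4.463% of all. These are matches of letters in the reference and not measured binding.

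Itgb3 encodes the beta subunit that pairs with the Itga2b product. Its tested probe set (1455257_at) had signals of 169 and 187 in Zfx-cko HSC, against 9.57 and 24.7 in Zfx-flox HSC. One control array lay under the added constant of 14.2 and the other just above it, and both were under the filter signal of 25.4, while both Zfx-cko arrays were far above. The fit gave a log2 change of 2.66 ± 0.25 (SE, adjusted p = 5.17e-05), but with the controls near the floor its size depends on the added constant. Itgb3 was also the 1 member that was higher in Zfx-null ESC, with 236 and 200, against 96.6 and 69.7 in Zfx-flox ESC (log2 change 1.26 ± 0.25, SE, adjusted p = 0.00666). Its other probe set (1421511_at) stayed between 2.03 and 9.33 on all 8 arrays and was not tested.

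Gp9 and Gp1bb encode small subunits that the von Willebrand factor receptor needs to reach the platelet surface. Gp9 (1419720_at) had signals of 176 and 112 in Zfx-cko HSC, against 11.9 and 21.4 in Zfx-flox HSC. The groups did not overlap, the control arrays lay about the added constant, and the log2 change was 2.35 ± 0.29 (SE, adjusted p = 0.000253). In ESC the Gp9 signal stayed between 4.96 and 8.68 and was not tested. Gp1bb (1422977_at) had 143 and 127 in Zfx-cko HSC, against 49.98 and 56.7 in Zfx-flox HSC, also without overlap. Its log2 change was 1.15 ± 0.21 (SE, adjusted p = 0.00222). The gene's other probe set (1456427_at) disagreed. It read 81.3 and 68.8 in Zfx-cko HSC and 83.6 and 72.1 in Zfx-flox HSC. Its log2 change was -0.05 (95% interval -0.44 to 0.34, adjusted p = 0.865). List counts take 1456427_at for the gene, because its mean over all 8 arrays is the higher. In ESC it averaged 77.3 in Zfx-null and 99.8 in Zfx-flox cells, against 24.2 and 31.3 for 1422977_at. A further probe set annotated to both Gp1bb and its neighbour Septin5 (1452357_at) read 17.4 and 15.6 in Zfx-cko HSC and 35.4 and 29.2 in Zfx-flox HSC and was too weak to be tested there. The direction of Gp1bb is therefore uncertain.

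Treml1 encodes a receptor stored in platelet alpha granules that reaches the surface on activation. Its probe set (1452630_at) had 176 and 135 in Zfx-cko HSC, against 146 and 87.7 in Zfx-flox HSC. These groups overlapped, and the log2 change of 0.40 had a 95% interval of -0.51 to 1.30 (adjusted p = 0.485). In ESC it read 47.6 and 12.4 in Zfx-null cells and 65.6 and 112 in Zfx-flox cells, and passed the test as lower at -1.30 ± 0.40 on the log2 scale (SE, adjusted p = 0.0431). It was tested there only through the Zfx-flox signal, the replicates differed widely, and that call was lost in 10 of 19 alternative settings, at an adjusted p of up to 0.231.

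Pf4 encodes platelet factor 4, a chemokine of the alpha granules. Its probe set (1448995_at) read 3374 and 3404 in Zfx-cko HSC, against 974 and 887 in Zfx-flox HSC. The Zfx-cko arrays differed from each other by less than the controls did, and the groups were 3.64-fold apart in their means. The log2 change was 1.85 ± 0.18 (SE, adjusted p = 5.54e-05). ESC signals were low, at 35.7 and 51.2 in Zfx-null and 48.5 and 30.1 in Zfx-flox cells.

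Vwf encodes von Willebrand factor, an adhesive protein of megakaryocytes and endothelial cells. Its probe set (1435386_at) read 202 and 254 in Zfx-cko HSC, against 65.7 and 77.5 in Zfx-flox HSC. Both Zfx-cko arrays lay above both controls, at a log2 difference of 1.49 ± 0.22 (SE, adjusted p = 0.000706). In ESC it read 2.23 and 3.15 in Zfx-null and 15.4 and 11.1 in Zfx-flox cells, which is near or under the added constant. Because endothelial cells also make Vwf, their markers were read beside it: Cdh5 and Pecam1 averaged 16.3 and 9.33 in Zfx-cko HSC and 11.1 and 11.4 in Zfx-flox HSC, all near the floor of the array. Over 10 endothelial markers the summed signal was 1107 to 1261 in Zfx-cko HSC and 841 to 929 in Zfx-flox HSC. Of 8 tested, 4 were higher and 1 was lower, or 3 of 6 and 0 among those strong in both groups. Of all genes tested in HSC, 22.5% passed as higher and 19.6% as lower. Among the 10 markers, Tek averaged 154 in Zfx-cko HSC and 46.9 in Zfx-flox HSC, and Plvap 15.9 in Zfx-cko HSC and 111 in Zfx-flox HSC. The part of these markers in the Vwf result was not tested.

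Of the members that encode transcriptional regulators, 1 passed in each direction in HSC. Zfpm1 encodes the Gata1 cofactor. Its probe set (1451046_at) read 367 and 363 in Zfx-cko HSC, against 451 and 486 in Zfx-flox HSC, a ratio of means of 0.779. The groups did not overlap and the log2 change was -0.35 ± 0.12 (SE, adjusted p = 0.0402). That call was lost without a filter on weak probe sets (adjusted p = 0.0526), with nothing added to the signal (0.0502), with the mean of the gene's probe sets (0.278) and without any single HSC array (0.0877 to 0.198). The other Zfpm1 probe set (1423603_at) read 3.89 and 19.7 in Zfx-cko HSC and 11.5 and 25.5 in Zfx-flox HSC and was not tested.

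Nfe2 encodes the p45 subunit of NF-E2, a factor needed for platelet release that is also active in erythroid cells. Its probe set (1452001_at) read 1935 and 2060 in Zfx-cko HSC, against 1282 and 1258 in Zfx-flox HSC. The groups did not overlap, and their means were 1.57-fold apart, or 0.65 ± 0.17 on the log2 scale (SE, adjusted p = 0.0155). In ESC the signal was 15.1 and 20.7 in Zfx-null and 6.60 and 15.3 in Zfx-flox cells. The fit pools the spread of all 4 groups. With only the HSC arrays the adjusted p was 0.000101, while with a smaller added constant, with none, and without any single HSC array the call was lost, at adjusted p of 0.0871, 0.182 and 0.0660 to 0.102.

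**Figure D2:**
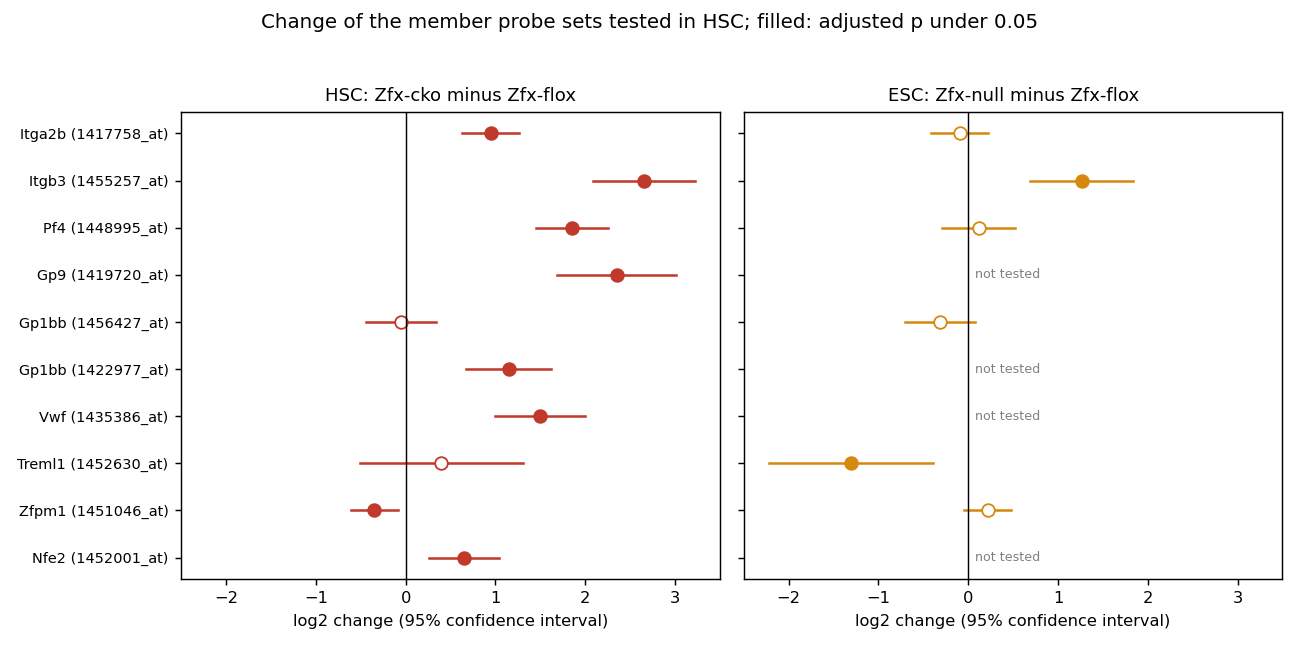
Log2 change of the 10 member probe sets tested in HSC, with 95% intervals of the limma fit. The left panel shows Zfx-cko over Zfx-flox in HSC, and the right panel Zfx-null over Zfx-flox in ESC. Filled symbols passed at an adjusted p under 0.05, and probe sets not tested in ESC are marked so. In HSC, Itgb3 lies at 2.66 and Zfpm1 at -0.35, and the intervals of the second Gp1bb probe set and of Treml1 span 0.

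Other genes of the lineage were read from lists by role. Platelet receptors were the first of these. Of 17 listed genes outside the members, 10 were tested in HSC with 1 probe set each, and 3 were higher and 0 lower, with a median log2 change of 0.51. Of these 10 genes, 2 were tested only through their signal in Zfx-cko, and without them the counts were the same and the median 0.48. Over all 12533 genes tested in HSC, 42% passed, 22.5% as higher and 19.6% as lower, and the median was 0.03. Cd9, a tetraspanin abundant on platelets, had 991 and 1081 in Zfx-cko HSC, against 349 and 310 in Zfx-flox HSC (log2 change 1.61 ± 0.08, SE, adjusted p = 1.79e-06). Pear1, a platelet contact receptor, had 381 and 410 in Zfx-cko HSC, against 156 and 119 in Zfx-flox HSC. Tbxa2r, the thromboxane receptor, had 198 and 194 in Zfx-cko HSC, against 92.6 and 75.2 in Zfx-flox HSC. The arrays of the HSC groups did not overlap for these 3 receptors, as for 40.3% of all probe sets tested in HSC in that direction. Gp5, which belongs with Gp9 and Gp1bb in the von Willebrand factor receptor, averaged 127 in Zfx-cko HSC and 157 in Zfx-flox HSC, a log2 change of -0.28 that missed the threshold (adjusted p = 0.327). Selp, the granule protein P-selectin, averaged 143 in Zfx-cko HSC and 84.7 in Zfx-flox HSC and did not pass either (adjusted p = 0.145). Gp1ba was not analysed here.

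Genes of platelet granules and coagulation were split: of 10 tested, 4 were higher and 1 lower, with a median log2 change of 0.49. The shares over all genes tested in HSC were 22.5% higher and 19.6% lower. Sparc, a matrix protein stored in alpha granules, read 88.4 and 73.7 in Zfx-cko HSC, against 8.05 and 8.59 in Zfx-flox HSC, where it lay under the added constant. Sparc was tested only through its Zfx-cko signal, and without it 3 of 9 were higher and 1 lower, with a median of 0.33. F5, coagulation factor V, read 321 and 305 in Zfx-cko HSC, against 96.98 and 102 in Zfx-flox HSC (log2 change 1.53 ± 0.17, SE, adjusted p = 0.000119). Nbeal2, which granule formation needs, and Mmrn1, a carrier of factor V, were the other 2 that rose, by log2 1.14 and 1.12. F13a1, the clotting transglutaminase that macrophages also make, was lower, at 224 and 198 in Zfx-cko HSC, against 503 and 460 in Zfx-flox HSC (log2 change -1.14 ± 0.19, SE, adjusted p = 0.00153). Ppbp, a chemokine gene beside Pf4 and named here after its values were seen, read 64.2 and 64.9 in Zfx-cko HSC, against 42.8 and 30.6 in Zfx-flox HSC, and did not pass (adjusted p = 0.0766).

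In the list of cytoskeletal and signalling genes, 4 of 9 tested were higher and 0 lower, with a median log2 change of 0.36. The shares over all genes tested in HSC were again 22.5% higher and 19.6% lower. Plek, the platelet substrate of protein kinase C, read 1774 and 1896 in Zfx-cko HSC, against 419 and 426 in Zfx-flox HSC (log2 change 2.08 ± 0.31, SE, adjusted p = 0.000699). Cavin2 and Rab27b were higher by log2 1.80 and 1.07. Tubb1, the tubulin of the platelet marginal band, averaged 109 in Zfx-cko HSC and 88.6 in Zfx-flox HSC, a log2 change of 0.36 that missed the threshold (adjusted p = 0.458).

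Of 14 transcription factors of the lineage tested in HSC, 7 were higher and 3 were lower, with a median log2 change of 0.51. Meis1, a homeobox factor of stem cells and megakaryocytes, read 3181 and 3305 in Zfx-cko HSC, against 579 and 611 in Zfx-flox HSC (log2 change 2.42 ± 0.10, SE, adjusted p = 1.02e-06). Fli1, an ETS factor of megakaryocyte genes, read 2246 and 2094 in Zfx-cko HSC, against 1022 and 955 in Zfx-flox HSC (log2 change 1.12 ± 0.17, SE, adjusted p = 0.000801). Mef2c was higher by log2 1.44. Runx1 was higher too, at 818 and 866 in Zfx-cko HSC, against 277 and 300 in Zfx-flox HSC, although not all of its 6 probe sets agreed. The 3 that were lower are shared with the erythroid lineage. Gata1 read 536 and 562 in Zfx-cko HSC, against 1754 and 1738 in Zfx-flox HSC (log2 change -1.64 ± 0.25, SE, adjusted p = 0.000787). Gfi1b, a repressor needed in both lineages, read 403 and 438 in Zfx-cko HSC, against 1398 and 1432 in Zfx-flox HSC. Tal1 read 1774 and 1885 in Zfx-cko HSC, against 2890 and 2770 in Zfx-flox HSC. All 3 lay lower on both Zfx-cko arrays than on both controls, as did 30.1% of all probe sets tested in HSC. Over the 58 related genes of the 4 lists, 43 were tested, 18 were higher and 4 lower, with a median log2 change of 0.36. For these genes and for the 14 factors, the shares over all genes tested in HSC were 22.5% higher and 19.6% lower.

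**Figure D3:**
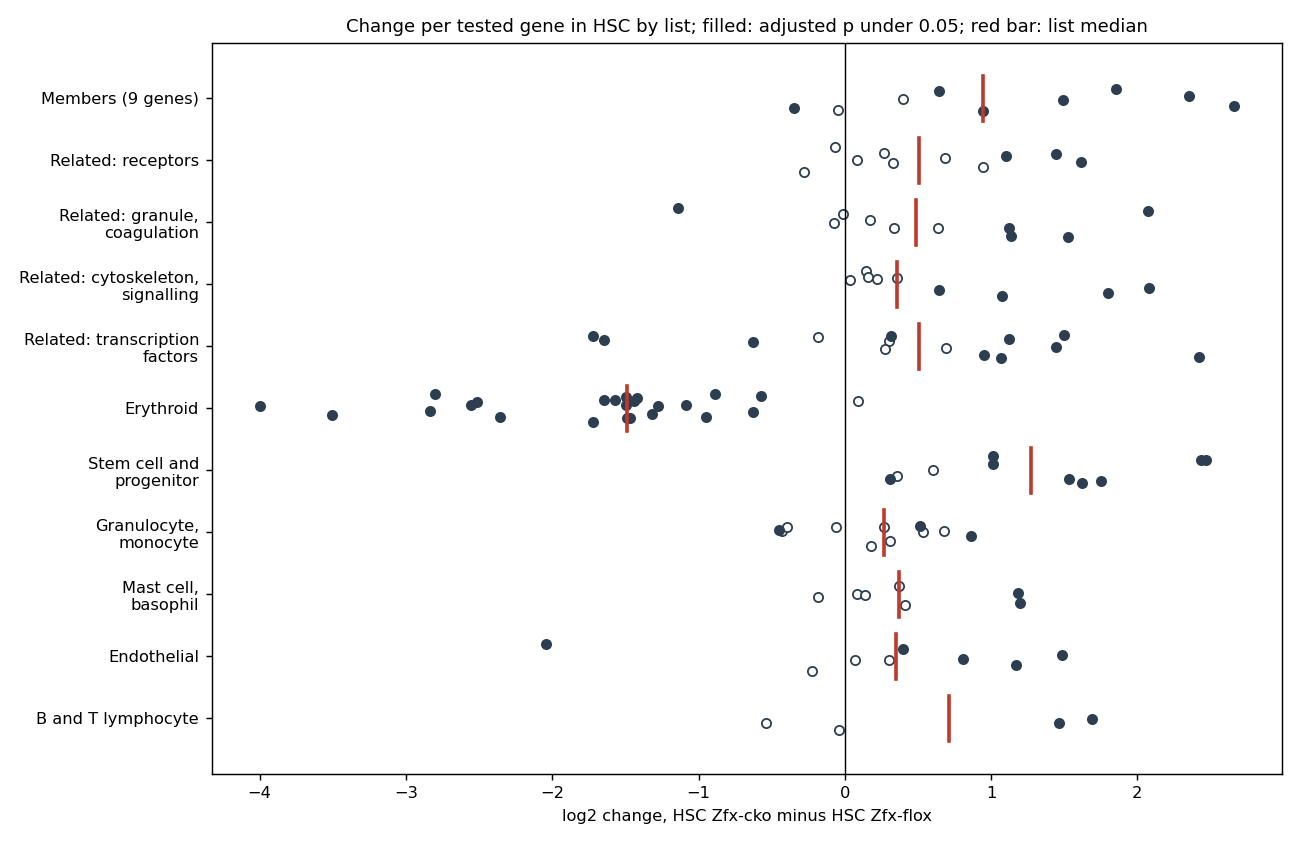
Log2 change, Zfx-cko over Zfx-flox in HSC, of each gene tested, by list; each dot is a gene and the red bar is the list's median. The erythroid list has its median at -1.49 and the stem and progenitor markers at 1.27.

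Genes of the erythroid lineage were lower in Zfx-cko HSC, opposite to most members. Of 24 erythroid genes tested, 0 were higher and 23 lower, with a median log2 change of -1.49. Of all genes tested in HSC, 22.5% passed as higher and 19.6% as lower. Gata1, Gfi1b and Tal1 stand in both kinds of list. Without them 20 of 21 erythroid genes were lower and the median was again -1.49. Klf1, the factor that drives globin genes, read 319 and 330 in Zfx-cko HSC, against 1874 and 1974 in Zfx-flox HSC (log2 change -2.52 ± 0.20, SE, adjusted p = 2.02e-05). Ermap, an erythroid membrane protein, read 551 and 531 in Zfx-cko HSC, against 6344 and 6232 in Zfx-flox HSC. Rhag, a channel protein of the red cell Rh complex, read 125 and 65.5 in Zfx-cko HSC, against 1819 and 1525 in Zfx-flox HSC. The erythropoietin receptor Epor read 109 and 106 in Zfx-cko HSC, against 295 and 283 in Zfx-flox HSC. All 4 were lower on both Zfx-cko arrays, where 30.1% of all probe sets tested were. The spectrin gene Sptb was the 1 of 24 that did not pass, averaging 99.96 in Zfx-cko HSC and 88.6 in Zfx-flox HSC. The summed signal of the erythroid list was 21101 to 21288 in Zfx-cko HSC and 57412 to 58030 in Zfx-flox HSC. That of the 9 members was 6836 to 6929 in Zfx-cko HSC and 3083 to 3205 in Zfx-flox HSC. The members' sum rests mainly on Pf4 and Nfe2. Pf4 averaged 3389 in Zfx-cko HSC and 930 in Zfx-flox HSC, and Nfe2 1998 and 1270.

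**Figure D4:**
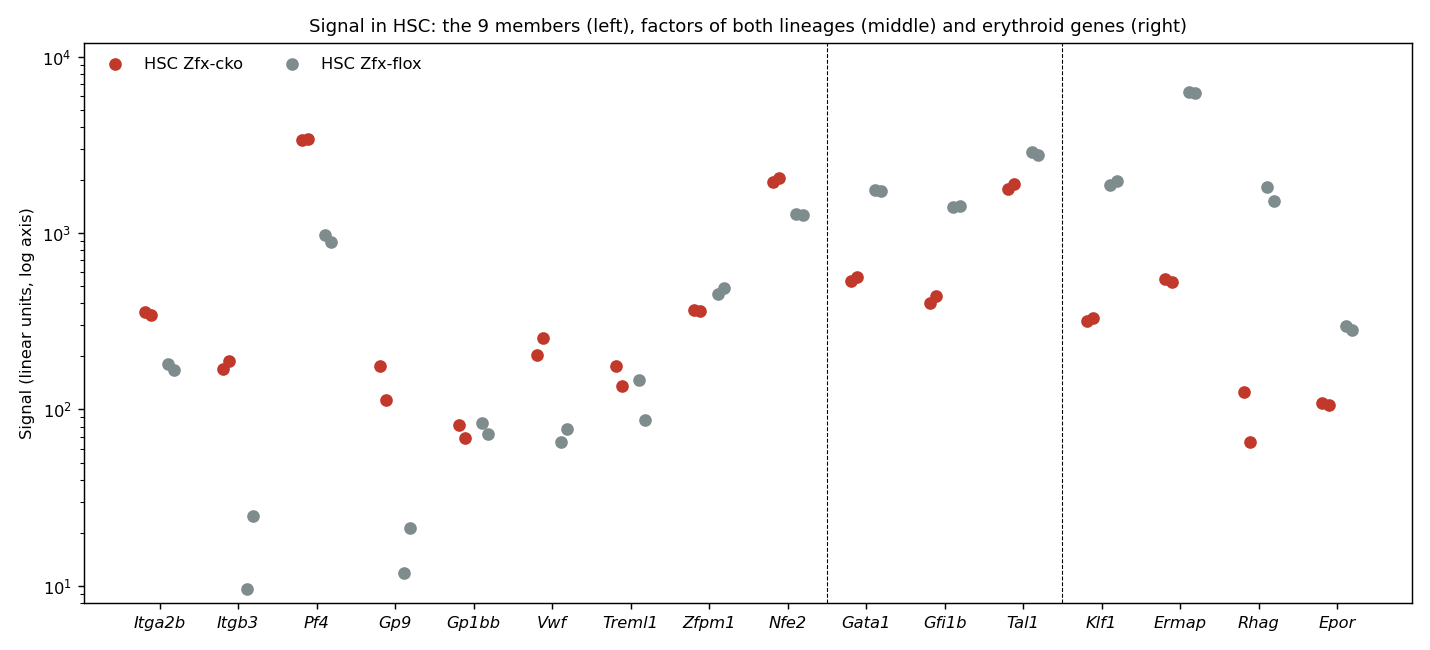
Signals (log axis, scaled array units) on the HSC arrays, Zfx-cko left of Zfx-flox, of the 9 members with the probe set used in list counts, of Gata1, Gfi1b and Tal1, which serve both lineages, and of the erythroid genes Klf1, Ermap, Rhag and Epor. Of the members, 6 were higher in Zfx-cko, Zfpm1 was lower and the dots of Gp1bb and Treml1 overlap, while the 7 other genes were lower.

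Markers of stem cells and of other blood cells were read in the same HSC arrays, though the Lin- gate is meant to remove mature lineages. Over all genes tested in HSC, 22.5% passed as higher and 19.6% as lower, the shares beside which these lists stand. Of 10 stem and progenitor markers tested, 8 were higher and 0 lower. Their summed signal was 19812 to 19999 in Zfx-cko HSC and 8589 to 9000 in Zfx-flox HSC. Procr averaged 1751 in Zfx-cko HSC and 306 in Zfx-flox HSC, and Flt3 averaged 1829 in Zfx-cko HSC and 329 in Zfx-flox HSC. Mast cell and basophil markers summed to 3854 to 4025 in Zfx-cko HSC and 2201 to 2204 in Zfx-flox HSC, with 2 of 7 tested higher and 0 lower. Among them Cpa3 averaged 2521 in Zfx-cko HSC and 1090 in Zfx-flox HSC. Granulocyte and monocyte markers summed to 21491 to 21992 in Zfx-cko HSC and 18009 to 18122 in Zfx-flox HSC, with 2 of 11 tested higher and 1 lower, and the defining marker Itgam averaged 2.31 in Zfx-cko HSC and 1.30 in Zfx-flox HSC. Markers of B and T cells summed to 549 to 626 in Zfx-cko HSC and 291 to 331 in Zfx-flox HSC, with 2 of 4 tested higher and 0 lower. The defining markers Cd79a and Cd3e stayed low, averaging 27.9 and 7.96 in Zfx-cko HSC and 19.8 and 5.70 in Zfx-flox HSC. The part of these cells in the members' values was not tested.

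In ESC, 6 of the 12 member probe sets were tested, 1 was higher (Itgb3), 1 was lower (Treml1) and 4 did not pass, with a median log2 change of 0.01. Of all 27022 probe sets tested in ESC, 25% passed, 12.2% as higher and 12.7% as lower. Of the 31 related genes tested in ESC, 12 were higher and 2 lower in Zfx-null cells, where 29.6% of all genes tested passed, 15.3% as higher and 14.3% as lower. Those with the largest changes include Maff, a small Maf partner of NF-E2, which read 156 and 130 in Zfx-null ESC, against 5.65 and 6.48 in Zfx-flox ESC, where it was too weak to be tested on its own. Thbs1, the matrix protein thrombospondin, averaged 4601 in Zfx-null ESC and 1839 in Zfx-flox ESC, and Srgn, the granule proteoglycan, averaged 31.1 in Zfx-null ESC and 135 in Zfx-flox ESC, so that its test rests on the Zfx-flox signal. Cd9 was lower in Zfx-null ESC by the test (log2 change -0.88, adjusted p = 0.000115) and higher in Zfx-cko HSC, as given above. Of the 14 erythroid genes tested in ESC, 0 were higher and 3 lower, with a median log2 change of 0.01.

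The change in HSC was set against the change in ESC by the interaction term of the same fit. Of 10 member probe sets tested, 6 had a more positive change in HSC and 1 a more negative one, where 26.9% of all 31215 probe sets tested passed, 15.1% as more positive and 11.8% as more negative. Gp9, 1 of the 6, entered this test only because it was strong in Zfx-cko HSC. The difference, HSC change minus ESC change, was 2.19 ± 0.31 for Vwf (adjusted p = 0.00116), 1.74 ± 0.25 for Pf4 (adjusted p = 0.00138) and 1.04 ± 0.20 for Itga2b (SE, adjusted p = 0.00513). For Itgb3, which was higher in both cell types, it was 1.40 ± 0.36 (SE, adjusted p = 0.0194). For Nfe2 it was 0.28, with a 95% interval of -0.27 to 0.83 (adjusted p = 0.446), and for Treml1 1.70 (adjusted p = 0.0556). Signals of Gp9, Vwf and Nfe2 in ESC lay near or under the added constant, where little change can be seen.

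Genes with a pattern most like a member's were ranked by the root mean square difference of the log2 values over the 8 arrays, after each gene's own mean was taken off. These values describe likeness across 4 groups and carry no test. Nearest to Pf4 were Tmem71 and the progenitor marker Cd34, at 0.229 each. Nearest to Itga2b was Cand2 at 0.0893, nearest to Vwf was Sirt3 at 0.155 and nearest to Nfe2 was the adhesion molecule Icam2 at 0.261. Nearest to Itgb3 was the immediate early gene Jun at 0.271, nearest to Gp9 was Nlrc3 at 0.240 and nearest to Zfpm1 was 4930430F08Rik at 0.0620. None of these 7 members was the nearest gene of another, and Gp1bb and Treml1 were not ranked.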

How the data were processed

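Per the labels, RNA was hybridized to Affymetrix Mouse Genome 430 2.0 arrays, and the authors deposited linear signal intensities. The submitters' processing notes name GCOS 1.4, while its summarisation settings are not stated there. Each of the 8 columns has a trimmed mean of 250.0, and column medians ran from 38.4 to 66.5; no detection calls were used. Signals were analysed as log2(signal + 14.2), the constant being the 25th percentile of all signals. Array number limits the precision. Probe sets whose mean log2 over the 4 arrays of a cell type was under the 40th percentile were left out (a signal of 25.4 in HSC and 39.1 in ESC), and 1 fit of 4 groups with trend was made in limma 3.58.1 under R 4.3.3, with 4 residual degrees of freedom. The test was the moderated one of limma with Benjamini-Hochberg adjustment over all probe sets tested. Each gene in a list was read from a single probe set, the one whose log2 signals averaged highest across all 8 arrays, not within a cell type. Of the probe sets, 34945 had 1 symbol, 932 had several and 9160 had none. Those with several symbols named no gene. On simulated data for the HSC comparison (27022 probe sets, 100 changed at each size), 79% of changes of log2 2 and 53% of log2 1 were recovered. Far fewer probe sets were changed there than the 10194 called in the HSC data, so these rates need not hold for the data.

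The members and lists were chosen with earlier results of these data known. Named genes are all member probe sets, in each list at most 6 that passed, by size of change, and at most 4 of the rest, by mean signal, the regulators and receptors Gata1, Gfi1b, Klf1, Epor, Gp1ba, Fli1 and Runx1, the defining markers, and for each member that passed in HSC the genes nearest in pattern. Replicate numbers pair the arrays by number alone: deviations of arrays with the same number correlated at 0.0716 in HSC and 0.319 in ESC. In all, 20 alternatives of the added constant, filter, scaling, probe set rule, fit and arrays were tried. Promoters are RefSeq's for GRCm38.p6; sequences of other members were not analysed here.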

Additional observations from a re-analysis of the deposited data

Results flagged for a closer look

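For 7 member probe sets the change in HSC differed from the change in ESC by the interaction term of the limma fit, at an adjusted p under 0.05. The difference, HSC change minus ESC change on the log2 scale, was 2.25 for Gp9, 2.19 for Vwf, 1.74 for Pf4, 1.40 for Itgb3 (1455257_at), 1.39 for Gp1bb (1422977_at), 1.04 for Itga2b and -0.56 for Zfpm1. Gp9 and Vwf had ESC signals near or under the added constant, and the second Gp1bb probe set did not pass. Gp9 entered the test only through its Zfx-cko HSC signal.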

How the results depend on the processing

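Of 311 recomputed values of member probe sets, or of the mean of a member's probe sets, 281 kept their direction and their side of the threshold. Another 23 no longer passed and 7 changed direction. Itga2b, Pf4 and Vwf passed as higher in HSC under each of the 20 alternatives. Itgb3 (1455257_at), Gp9 and Gp1bb (1422977_at) passed as higher wherever they were tested, in 18, 19 and 18 of the 20. Itgb3 and Gp9 were too weak to be tested in HSC under the stricter filter. The mean of both Gp1bb probe sets changed by 0.55 in HSC and passed as higher (limma, adjusted p = 0.0163). That mean takes in 1422977_at, whose own log2 change was 1.15. The HSC change of the second Gp1bb probe set by itself ran from -0.15 to 0.055 with an array left out. In ESC, Zfpm1 was at -0.12 with the mean of probe sets, Pf4 ran from -0.13 to 0.37 and Itga2b from -0.26 to 0.075 with an array left out. The 2 member calls in ESC became 1 with a smaller added constant, with none, without a filter, with a stricter filter, with the arrays of 1 cell type alone and without a variance trend, and were 1 to 2 with an array left out. The 10194 probe sets called in HSC and 6742 in ESC became 5345 and 3908 with 1 probe set per gene and 4494 and 3354 with the mean per gene, where fewer features are tested, and ESC calls were 4484 to 6374 with an array left out. Median centring of the arrays gave 47.4% higher among the HSC calls in place of 57.5%, and moved the median change of all probe sets by under 0.1. With the replicate number as a block, 8 member probe sets were called in HSC, 2 in ESC and 7 for the difference, the same counts as without it; all calls were 11557 in HSC and 8250 in ESC. The number of arrays, 2 a group, limits each comparison.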
